A study of Homo sapiens with 6 samples.

Results

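Cassette exons are exons that a cell either includes between their neighbours or skips. Described here are 347 cassette exon events that were partly included in control cells and had a lower inclusion rate in cells expressing RBM47. They were chosen on read totals pooled over the samples of a group. An event needed at least 30 reads in each group, a pooled control inclusion rate above 0.10 and below 0.90, a pooled difference (RBM47 minus control) of -0.10 or lower, and a two-sided Fisher p of at most 0.05 on the 4 totals. The inclusion rate is the including reads divided by the including reads plus 2 times the skipping reads, so that it runs from 0 (always skipped) to 1 (always included). Of 24648 distinct events in the table, 22915 had enough reads and 5515 of these were intermediate in control cells. The 347 members were 1.41% of all events and 6.29% of the intermediate ones, against 353 events that met the mirrored rule upwards and 4815 other intermediate events. Since the read totals chose the members, their differences are given as a description.

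RNA was measured by sequencing in 6 samples of MDA231-BrM2a, a derivative of the human breast cancer cell line MDA-MB-231 that forms brain metastases. The 3 control samples were non-clonal cells with the empty vector pRetroX-Tight-Pur. The 3 RBM47 samples were 1 clone (wt#10) carrying Flag-tagged wild-type RBM47 behind a promoter that doxycycline switches on (pRetroX-Tight-Pur Flag WT RBM47). Both groups received 10 ng/ml doxycycline for 3 days, so the drug itself was shared. RBM47 expression and clonal origin cannot be told apart in this design, and the table holds no event in RBM47 itself with which to check the transgene.

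RBM47 is an RNA-binding protein with RNA recognition motifs. Proteins of this kind can bind a pre-mRNA near a splice site and change how often the exon beside it is kept. Skipping a coding exon whose length is a multiple of 3 removes an internal stretch of the protein and leaves the reading frame intact, whereas other lengths shift the frame. In muscle, brain and epithelial cells many such exons lie in genes of the cytoskeleton, of cell adhesion and of membrane traffic, and the RBFOX, MBNL, CELF and PTB proteins are well studied regulators of them.

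In the pooled reads the median member went from an inclusion rate of 0.593 in control cells to 0.36 in RBM47 cells, both medians over the 347 events. The pooled difference had a median of -0.158, with quartiles of -0.227 and -0.122 and a range of -0.584 to -0.1001. It was at least 0.2 in size in 108 members, at least 0.3 in 33, at least 0.4 in 15 and at least 0.5 in 6. Falls of that largest size were held by NF2, EPB41, MYO18A and NFYA. Median read totals of a member were 212 in control and 162 in RBM47 samples, from 31 to 17337 and from 30 to 16615. Over the whole table the totals were 26470301 reads in control and 24092775 in RBM47 samples. Depth per sample is unknown, since the table sums the reads within a group.

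**Figure D1:**
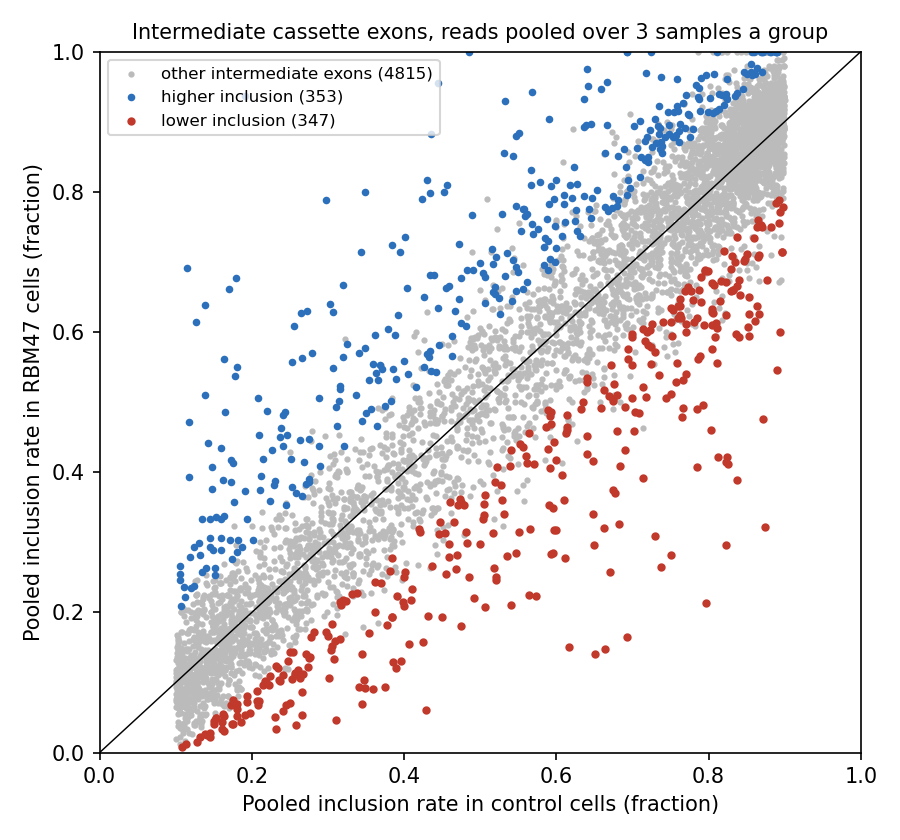
Pooled inclusion rate of each of the 5515 intermediate events in control cells (x axis, fraction) and in RBM47 cells (y axis, fraction), with the line of equal rates. The 347 members (red) lie at least 0.10 below the line, the 353 events with higher inclusion (blue) at least 0.10 above it, and grey points below the red limit did not reach the Fisher p.

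Some events lay close to the limit of -0.10. Just inside it were DCTD at -0.101, SEC16A at -0.101 and EFEMP1 at -0.1001. Just outside it were PLA2G12A, LRRC8A and PUF60, at -0.09996, -0.09993 and -0.09985. PLA2G12A also missed the limit on p (Fisher p 0.310), and LRRC8A and PUF60 did not (0.00224 and 7.17e-06). Sample rates overlapped between the groups in PLA2G12A, at 0.448, 0.556 and 0.6 in control and 0.273, 0.565 and 0.5 in RBM47 samples. They did not in PUF60 or in LRRC8A, at 0.215, 0.151 and 0.229 against 0.109, 0.0435 and 0.0707.

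Members came from 286 named genes and 299 distinct outer spans, the stretch from the upstream to the downstream neighbour of the exon. In 40 spans 2 to 4 member rows shared both outer ends (88 members), and 39 of these spans had 1 skipping total per group for all their rows. Such rows share the skipping reads and differ in the including reads, so they are not separate measurements of skipping. NF2, NFYA, EPB41, MARK3 and PLOD2 are of this kind, and SDR39U1 and NVL had the most member rows of a gene, with 4 each. No outer span held both a member and an event with higher inclusion.

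Sequences are shown for the members that combine the largest pooled differences, or the smallest limma p over all events, with a match to 1 annotated exon of at most 150 bases. For NFYA and PLOD2, 2 member rows of the span fit the same exon, so the sequence cannot be given to either row. The table's coordinates do not lie in the GRCh37 genes of the same names, so each exon was found by its gene and by the length of its outer span in the GENCODE annotation of GRCh37. Exon bases are in capitals, with 20 intron bases before and 10 after in lower case, on the strand of the gene. All 8 were coding over their whole length and a multiple of 3 long. MYO18A and NAV2 (45 bases each), NFYA (87), GIT2 (90), PLOD2 (63), LRRFIP2 (72), NUMA1 (42) and FLNA (24) would each add 8 to 30 amino acids.
MYO18A, chr17:27412622-27412666, minus strand: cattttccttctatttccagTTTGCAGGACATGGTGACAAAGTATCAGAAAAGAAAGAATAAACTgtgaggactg
NFYA, chr6:41048550-41048636, plus strand: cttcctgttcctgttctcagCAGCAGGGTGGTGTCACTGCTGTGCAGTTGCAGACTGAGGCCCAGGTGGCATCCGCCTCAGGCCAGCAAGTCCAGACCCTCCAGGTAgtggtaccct
NAV2, chr11:20072835-20072879, plus strand: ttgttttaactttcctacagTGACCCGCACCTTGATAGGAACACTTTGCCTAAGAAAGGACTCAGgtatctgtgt
GIT2, chr12:110383065-110383154, minus strand: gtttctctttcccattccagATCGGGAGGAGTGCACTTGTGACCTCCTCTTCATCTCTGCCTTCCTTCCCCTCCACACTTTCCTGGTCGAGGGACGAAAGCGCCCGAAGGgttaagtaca
PLOD2, chr3:145795649-145795711, minus strand: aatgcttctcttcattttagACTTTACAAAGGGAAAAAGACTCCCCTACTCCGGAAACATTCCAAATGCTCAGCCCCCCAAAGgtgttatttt
LRRFIP2, chr3:37132958-37133029, minus strand: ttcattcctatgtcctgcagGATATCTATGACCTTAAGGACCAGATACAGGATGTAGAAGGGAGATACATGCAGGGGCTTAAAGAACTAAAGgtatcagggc
NUMA1, chr11:71723447-71723488, minus strand: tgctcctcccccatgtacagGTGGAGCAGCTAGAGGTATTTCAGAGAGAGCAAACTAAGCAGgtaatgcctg
FLNA, chrX:153585619-153585642, minus strand: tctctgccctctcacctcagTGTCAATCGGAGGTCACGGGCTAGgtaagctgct

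The member with the largest pooled difference lay in NF2. This gene encodes merlin, which links the cell membrane to actin and restrains growth signals. One NF2 row had sample inclusion rates of 0.810, 0.75 and 0.778 in control and 0.290, 0.231 and 0.125 in RBM47 samples. The second row of the same span, which has the same skipping totals (7 and 37 reads), had rates of 0.871, 0.867 and 0.870 against 0.371, 0.375 and 0.25. In both rows every RBM47 sample lay below every control sample. These events rest on few reads, 62 in control and 57 in RBM47 samples for the first row. Members with the largest pooled differences or the smallest limma p were chosen on this contrast, so such separation follows from the choice. Their sample rates did not stand in the event's own row, and were taken from the row that gave the RBM47 average alone. Those control rates did not give the event's printed control average.

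EPB41 encodes the membrane skeleton protein that joins spectrin to actin under the membrane. Its row with the largest difference had rates of 0.852, 0.793 and 0.818 in control and 0.333, 0.143 and 0.238 in RBM47 samples, and the second row of that span 0.733, 0.647 and 0.760 against 0.333, 0.25 and 0.220. All RBM47 values again lay below all control values.

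MYO18A encodes an unconventional myosin. Its exon of 45 bases, printed above, had inclusion rates of 0.658, 0.706 and 0.708 in control and 0.186, 0.129 and 0.174 in RBM47 samples. The mean moved from 0.691 ± 0.0285 to 0.163 ± 0.0299 (SD, n = 3 in each group), so that skipping became the main form. Read totals behind these rates were 470 including and 104 skipping in control, and 189 and 480 in RBM47 samples.

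NFYA encodes a subunit of the NF-Y factor, which binds CCAAT boxes in promoters. In 1 of the 2 rows that fit its exon of 87 bases, rates were 0.702, 0.524 and 0.710 in control and 0.145, 0.188 and 0.121 in RBM47 samples. The other row had 0.663, 0.524 and 0.723 against 0.153, 0.188 and 0.0962. Control replicate 2 was the lowest control sample and still above the highest RBM47 sample. For the kinase MARK3, which acts on microtubule-associated proteins and cell polarity, rates were 0.748, 0.760 and 0.719 against 0.299, 0.304 and 0.228, and the second row of its span had 0.547, 0.6 and 0.530 against 0.243, 0.238 and 0.245.

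NAV2, a member of the neuron navigator family, had rates of 0.596, 0.590 and 0.652 in control and 0.158, 0.143 and 0.125 in RBM47 samples. GIT2, a GTPase-activating protein for ARF proteins that works at focal adhesions, had 0.806, 0.836 and 0.879 against 0.396, 0.294 and 0.423. Neither gene showed overlap between the groups.

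PLOD2 encodes a lysyl hydroxylase that modifies collagen before it is cross-linked. Its member rows fit the same exon of 63 bases and cannot be told apart by it. In the row with the larger including totals, rates were 0.817, 0.828 and 0.796 in control and 0.339, 0.349 and 0.442 in RBM47 samples. In the second row they were 0.709, 0.721 and 0.682 against 0.208, 0.25 and 0.333. Reads of the PLOD2 event were also fewer in RBM47 samples, 1070 in control against 266 for the first of these rows.

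The deeply read members gave tight sample rates. MYL6, the essential light chain of nonmuscle and smooth muscle myosin, had the most reads of any member, 17337 in control and 16615 in RBM47 samples, and rates of 0.353, 0.335 and 0.327 against 0.10, 0.0889 and 0.107. FLNA, the actin cross-linker filamin A, had 0.754, 0.768 and 0.756 against 0.523, 0.536 and 0.525 at its exon of 24 bases. ITGA6, the laminin-binding integrin alpha 6, had 0.583, 0.597 and 0.563 against 0.258, 0.237 and 0.283, with 5596 reads in control and 1207 in RBM47 samples. In each of these genes the gap between the groups was wider than the range within either group.

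NUMA1, a protein that anchors the mitotic spindle, had rates of 0.574, 0.558 and 0.554 in control and 0.318, 0.297 and 0.325 in RBM47 samples. LRRFIP2 had 0.819, 0.806 and 0.810 against 0.449, 0.333 and 0.474. MAP2K7, the kinase that activates JNK, had 0.852, 0.817 and 0.851 against 0.415, 0.415 and 0.429, although its pooled rates differed less (0.864 and 0.637). In MAP2K7 the fall of the mean sample rate was therefore larger than the pooled difference of -0.227 by which it was chosen.

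**Figure D2:**
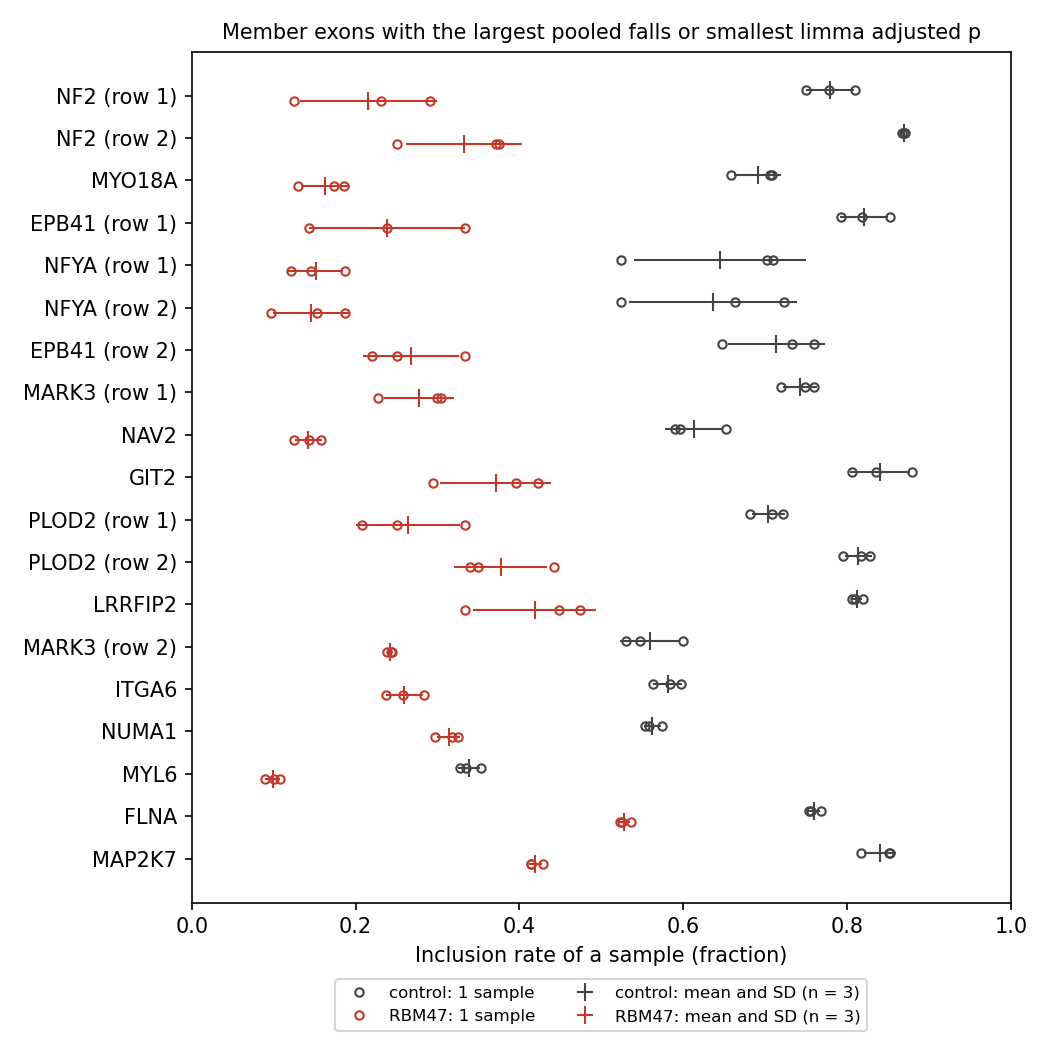
Inclusion rate of each sample (x axis, fraction) for the 19 members with the largest pooled differences or the smallest limma p. Open circles are samples, the tick and line give the mean and SD (n = 3), grey is control and red is RBM47. In all 19 the RBM47 samples lie to the left of the control samples, and FLNA and MARK3 row 2 show the narrowest RBM47 spread. The 19 were chosen on this same contrast, so the separation follows from the choice. Sample rates of all 19 were taken from the row that gave the RBM47 average alone. Their control rates did not give the event's printed control average.

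Gene lists describe which functions the members fall into. Over all 5515 intermediate events 6.29% were members and 6.40% had higher inclusion, and these shares are the background for each list. In the list of actin cytoskeleton, membrane skeleton and adhesion genes, 20 of 122 intermediate events (16.4%) were members and 21 (17.2%) had higher inclusion, so the list was above the background in both directions. Its member genes were ABI1, ARHGAP22, ARHGEF12, CTNND1, EPB41, EPB41L1, FLNA, ITGA6, MYO18A, MYO5A, NF2, PXN, SPTAN1, TPM1 and TPM3. In 15 of the 20 the sample rates did not overlap between groups, beside 58.7% of all members with rates and a background of 9.42% over intermediate events. The median pooled difference over the 122 events was 0.00446, beside 0.00386 over all intermediate events.

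Among the other actin-related members, TPM3, a tropomyosin that coats actin filaments, had rates of 0.4, 0.333 and 0.2 in control and 0.0909, 0.0189 and 0.0303 in RBM47 samples. CTNND1 encodes p120 catenin of adherens junctions and had 0.414, 0.410 and 0.396 against 0.317, 0.228 and 0.292. SPTAN1, alpha spectrin, had 0.342, 0.380 and 0.368 against 0.242, 0.174 and 0.262. The groups did not overlap in these 3, which were named after their values were seen. In TPM1 they did, since RBM47 replicate 1 (0.4) lay above the lowest control sample (0.280) in the row with the larger difference.

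Genes for RNA-binding proteins and splicing regulators held 11 members among 157 intermediate events (7.01%) and 4 events with higher inclusion (2.55%). Among their genes were CELF1, CLK4, DDX17, DDX42, DHX30, RBM26 and ZC3H11A. In DDX17, an RNA helicase, the pooled rate went from 0.268 to 0.112 while the sample rates were 0 in all RBM47 samples and at most 0.00758 in control. No overlap of samples was seen in 3 of the 11 members, beside the same 58.7% of all members and 9.42% of intermediate events.

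Membrane traffic and endocytosis genes held 14 members (7.78% of 180), fewer than the 24 events (13.3%) with higher inclusion. SEC31A forms the outer layer of the COPII coat, which buds vesicles from the endoplasmic reticulum. Its member event had rates of 0.746, 0.706 and 0.723 in control and 0.606, 0.537 and 0.553 in RBM47 samples. By RT-PCR the paper reports higher inclusion with RBM47 for cassette exons of SEC31A, and those were not matched to this event. AP3S1, a subunit of the AP-3 adaptor, had 0.851, 0.837 and 0.827 against 0.715, 0.749 and 0.739. Both had no overlap between groups.

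In the remaining lists the share of members ran from 4.17% to 7.37%. Centrosome, cilium and microtubule genes had 7 members of 168 events (4.17%), with NUMA1 and PCM1 the deepest. Chromatin and transcription genes had 24 of 369 (6.50%), with GTF2I and MED15 the deepest. For GTF2I, a general transcription factor, the rates were 0.609, 0.717 and 0.699 in control and 0.504, 0.553 and 0.528 in RBM47 samples. Kinase, phosphatase and small GTPase genes had 12 of 197 (6.09%). CSNK1D, casein kinase 1 delta, had 0.797, 0.836 and 0.845 against 0.680, 0.715 and 0.711. Ubiquitin, proteasome and autophagy genes had 10 of 190 (5.26%), and its deepest, USP4 and KLHL5, both overlapped between groups, the latter with 0.209, 0.344 and 0.252 against 0.206, 0.231 and 0.171.

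Apoptosis, p53 and DNA repair genes had 7 members of 95 events (7.37%) and 4 with higher inclusion (4.21%). MDM4 restrains p53, and both of its rows were members with few reads. They overlapped between groups, with rates of 0.538, 0.643 and 1 in control and 0.636, 0.333 and 0.5 in RBM47 samples in the row with the larger difference. For MDM4 the paper reports lower inclusion of an exon with RBM47 by RT-PCR, and that exon was not matched to these rows. RAD1, a subunit of the checkpoint clamp, did not overlap at 0.502, 0.519 and 0.591 against 0.426, 0.371 and 0.423. POLB, the base excision repair polymerase, overlapped. In total 242 members were in none of the lists, so the lists cover 105 of them.

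**Figure D3:**
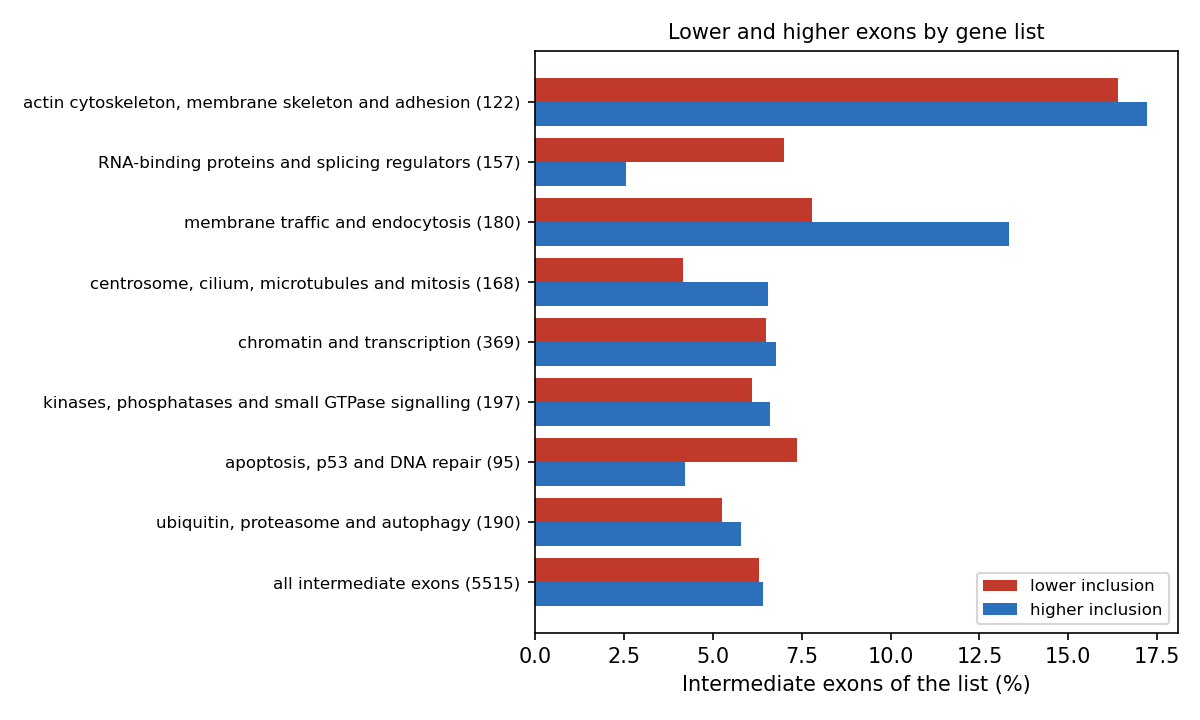
Share of the intermediate events of each gene list (x axis, percent) that were members (red) or had higher inclusion (blue), with the number of intermediate events in brackets. The actin and adhesion list stands at 16.4% and 17.2%, against 6.29% and 6.40% over all intermediate events.

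Sample rates could be read for 346 of the 347 members. The median over members was 0.498, 0.495 and 0.507 in the 3 control samples and 0.259, 0.256 and 0.260 in the 3 RBM47 samples. In 336 members the mean rate was lower in RBM47 samples, and the median difference of means was -0.149, against 0.00139 over the intermediate events. All 3 RBM47 samples lay below all 3 control samples in 203 members (58.7%), where the background over intermediate events was 9.42%, and no member showed the opposite. The rule used this contrast, so the gap from the background is a consequence of the choice. RBM47 replicate 2 had the most rates at exactly 0 or 1 among members (11.8%, against 4.05% to 7.80% in the other samples), and across intermediate events its rates had r of 0.847 to 0.884 with the other samples, below the 0.893 to 0.921 among those 5.

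limma, fitted on the sample rates of 5989 events with a mean rate of 0.1 to 0.9, tested 291 members and called 41 of them lower at an adjusted p under 0.05 (14.1%, background 1.09%). The rule used the same contrast, so this gap from the background also follows from the choice and is a description. A further 24 events outside the rule were called lower. Called members had more reads than tested members that were not called, with a median over both groups of 1268 against 383.5. An unadjusted limma p under 0.05 was found in 156 members, and 206 members had a Fisher p that stayed under 0.05 after Benjamini-Hochberg adjustment over the table. Fisher's test pools the samples and does not see the spread between them. Nothing in the labels says that the samples of a group came from separate experiments, so the spread between them may be technical.

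In 171 of the members the sample rates did not stand in the event's own row or were lacking. The rates of 1392 of the table's rows (5.63%) did not give the group averages printed there, and such rows were 171 of the 347 members (49.3%) and 596 of the intermediate events. For 85 members the rates were taken from the row that gave both averages, and for 85 from the row that gave the RBM47 average alone. In the latter the control rates taken did not give the printed control average. All 174 intermediate events matched in this way were changed ones, 85 members and 89 with higher inclusion. Among the 4919 intermediate events with rates in their own row, 176 were members and 182 had higher inclusion. The mean sample rate was at least 0.203 lower in RBM47 samples in every member matched by the RBM47 average alone. These members hold 30 of the 41 limma calls, while 6 calls lay among the 176 members with rates in their own row. No overlap was seen in 72 of the 85 matched by the RBM47 average, 42 of the 85 matched by both and 89 of the 176 in their own row. Every sample rate given above for NF2, EPB41, MYO18A, NFYA, MARK3, NAV2, GIT2, PLOD2, LRRFIP2, ITGA6, NUMA1, MYL6, FLNA, MAP2K7 and TPM3 is of the RBM47 average kind. The same holds for the TPM1 rates given above. Pooled rates do not depend on this matching.

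Pooled and sample rates parted in some members. The mean control rate was over 0.2 away from the pooled one in 46 members, and in 45 of these the pooled one was higher. In VPS29, a subunit of the retromer, the pooled rate went from 0.708 to 0.484 on 826 and 653 reads, while the mean sample rates were 0.0103 and 0.00677. In 4 members the sample rates were 0 in all 6 samples, among them KCTD21, whose including totals were 21 and 4 reads. SH3BGRL went the other way, with sample rates of 1, 0.0933 and 1 in control and 0.0370, 0.0476 and 0.167 in RBM47 samples on 55 and 53 reads. VPS29, KCTD21 and SH3BGRL were picked after their values were seen.

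**Figure D4:**
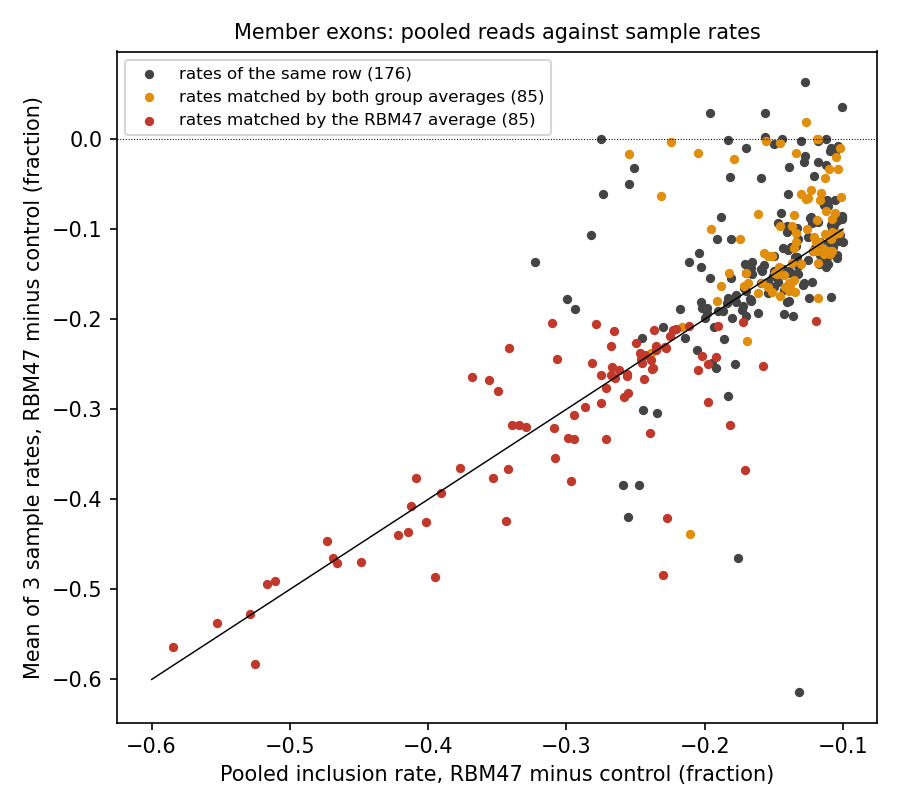
Difference of the pooled rate (x axis) and of the mean sample rate (y axis), both RBM47 minus control as a fraction, for 346 members, with the line of equal differences. Colours give how the sample rates were matched to the event (176, 85 and 85 members). Points near 0 on the y axis, such as VPS29, moved in the pooled reads but hardly in the sample rates.

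Exon features were not used by the rule. A single annotated GRCh37 exon fitted 135 members (38.9%), 109 of the events with higher inclusion and 1456 of the other intermediate events. Member exons were short, with a median length of 72 bases (quartiles 48.5 and 100.5) against 102 and 107.5 in the other groups. At most 60 bases long were 50 of the 135 (37.0%), against 17.4% of the higher and 17.2% of the other exons. Microexons of at most 27 bases made up 13 (9.63%), against 4 (3.67%) and 38 (2.61%). They lay in MLLT4, CADPS2, FLNA, TRAPPC13, SLIT2, MPP3, OCRL, SNX14, MAST2, MEF2D, CLASP1, MPP4 and ZNF226, and all but the last were coding over their whole length.

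Most member exons kept the reading frame. Their length was a multiple of 3 in 102 of 135 (75.6%), against 65.1% of the higher and 55.4% of the other intermediate exons. Coding over their whole length were 110 (81.5%), against 78.9% and 76.4%, and among these the share that was a multiple of 3 was 85.5%, against 76.7% and 62.7%. Flanking introns had medians of 1906 bases before and 2034 bases after the member exons, 1827 and 1499 for the higher and 1711 and 1770 for the other exons. C or T made up 65% of the last 20 intron bases in the median member and 70% in both other groups. These shares were compared as counts and not tested.

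The letters TGCATG, the motif that RBFOX proteins bind, stood in the 100 intron bases after the exon in 23 of 135 members (17.0%, 95% Wilson interval 11.6 to 24.3, counting error only). They stood there in 5 of 109 higher (4.59%) and 49 of 1456 other intermediate exons (3.37%). Before the exon the shares were 4.44%, 7.34% and 3.37%. Only the strand of the gene was searched, and the motif share was not a planned result. Over 200 bases after the exon the shares were 22.2%, 11.0% and 6.59%, and among exons of at most 100 bases 18.8%, 5.66% and 3.95%. Other strings, a run of 5 T and ACTAA, differed less. TTTTT after the exon was found in 30.4% of members, 27.5% of higher and 30.3% of other exons, and ACTAA in 9.63%, 8.26% and 7.14%.

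The 23 members with TGCATG after the exon were GOLGA2, LRP8, WDFY3, MADD, CADPS2, SYNE2, NUMA1, ZKSCAN5, RELL2, ABLIM3, MALT1, SLIT2, AKAP11, APP, KIAA0226, MAST2, ABI1, LSM14B, PLEKHM2, CNNM2, C18orf25, OTUD5 and PXDN. Of these exons 21 were a multiple of 3 long, and 16 members showed no overlap of samples, beside 203 of all 346 members with rates (58.7%) and 9.42% of intermediate events. Their median pooled difference was -0.2, beside -0.171 in the 112 other matched members. The motif began 7 to 89 bases into the intron. The first 100 intron bases are shown for the 6 of them with the largest pooled difference and for those called by limma, chosen after the values were seen, with TGCATG in capitals.
GOLGA2, chr9:131034964-131035063, minus strand: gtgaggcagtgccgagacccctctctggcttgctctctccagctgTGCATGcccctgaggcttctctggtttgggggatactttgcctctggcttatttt
LRP8, chr1:53738176-53738275, minus strand: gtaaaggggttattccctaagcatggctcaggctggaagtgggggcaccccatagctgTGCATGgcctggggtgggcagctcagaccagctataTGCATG
WDFY3, chr4:85647914-85648013, minus strand: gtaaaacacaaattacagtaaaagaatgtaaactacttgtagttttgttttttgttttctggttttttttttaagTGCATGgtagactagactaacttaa
MADD, chr11:47310579-47310678, plus strand: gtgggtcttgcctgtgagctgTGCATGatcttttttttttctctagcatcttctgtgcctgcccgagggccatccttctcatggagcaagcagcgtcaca
CADPS2, chr7:122076314-122076413, minus strand: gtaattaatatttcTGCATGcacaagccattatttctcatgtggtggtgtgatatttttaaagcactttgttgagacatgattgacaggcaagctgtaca
SYNE2, chr14:64682073-64682172, plus strand: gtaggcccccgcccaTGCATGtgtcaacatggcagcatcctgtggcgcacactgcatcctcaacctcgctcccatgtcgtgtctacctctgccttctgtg
NUMA1, chr11:71723347-71723446, minus strand: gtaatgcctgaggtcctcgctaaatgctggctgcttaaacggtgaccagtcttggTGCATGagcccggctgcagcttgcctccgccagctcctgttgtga
APP, chr21:27369575-27369674, minus strand: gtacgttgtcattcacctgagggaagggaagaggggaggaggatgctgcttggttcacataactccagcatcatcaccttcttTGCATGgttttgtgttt

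Sample rates of these members differed in their spread. Those of GOLGA2, LRP8, WDFY3, MADD, CADPS2, SYNE2, NUMA1, RELL2 and MALT1 were matched by the RBM47 average alone. Among the members with the motif that limma called, only APP had rates in its own row. GOLGA2, a Golgi matrix protein, had 0.622, 0.667 and 0.647 in control and 0.337, 0.185 and 0.286 in RBM47 samples. APP, the amyloid precursor protein, had 0.399, 0.377 and 0.419 against 0.215, 0.225 and 0.209 at its exon of 57 bases, from rates in its own row and on 5174 and 3080 reads. LRP8, a receptor for reelin and apolipoprotein E that carries the motif 2 times, had 0.934, 0.859 and 0.846 against 0.556, 0.25 and 0.562. None of these 3 overlapped between groups.

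MADD, a regulator of Rab GTPases, had rates of 0.374, 0.554 and 0.507 in control and 0.102, 0.209 and 0.204 in RBM47 samples. In CADPS2, which primes secretory vesicles, the rates were 0.158, 0.388 and 0.5 against 0.3, 0 and 0, on 66 and 35 reads, and RBM47 replicate 1 lay inside the control range. SYNE2, a nuclear envelope protein that binds actin, overlapped as well, at 0.942, 0.852 and 0.692 against 0.762, 0.529 and 0.463.

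RBFOX2 itself had 5 events in the table, none of them a member, and its junction reads were fewer in RBM47 samples. At its deepest event the totals were 1211 reads in control and 424 in RBM47 samples, and at the next 1133 and 419. A scaled log2 ratio (RBM47 over control) was taken from a weighted sum of an event's reads, with a small constant added. In it skipping reads counted 2 times as much as including reads, as in the inclusion rate. Each group was scaled by the same weighted sum over the whole table. The ratio was -1.37 and -1.28 at these events and ran from -1.37 to -0.84 over the 5. Over the members the median scaled log2 ratio was -0.09 and over the other intermediate events -0.09. The inclusion rate at the 2 deepest RBFOX2 events was 0.998 and 0.943 in control and 1 and 0.935 in RBM47 samples, pooled. At the next deepest, on 308 and 150 reads, the pooled rate fell from 0.913 to 0.840. Its sample rates did not overlap, at 0.914, 0.927 and 0.894 in control against 0.811, 0.862 and 0.864. This event was not intermediate in control cells, and its pooled difference was -0.0726. At the remaining RBFOX2 events the pooled rates were 0.0719 and 0.0169 in control and 0.109 and 0.0159 in RBM47 samples. The part of RBFOX2 in the lower inclusion of the members was not tested. Junction totals of a group carry no replicate error.

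**Figure D5:**
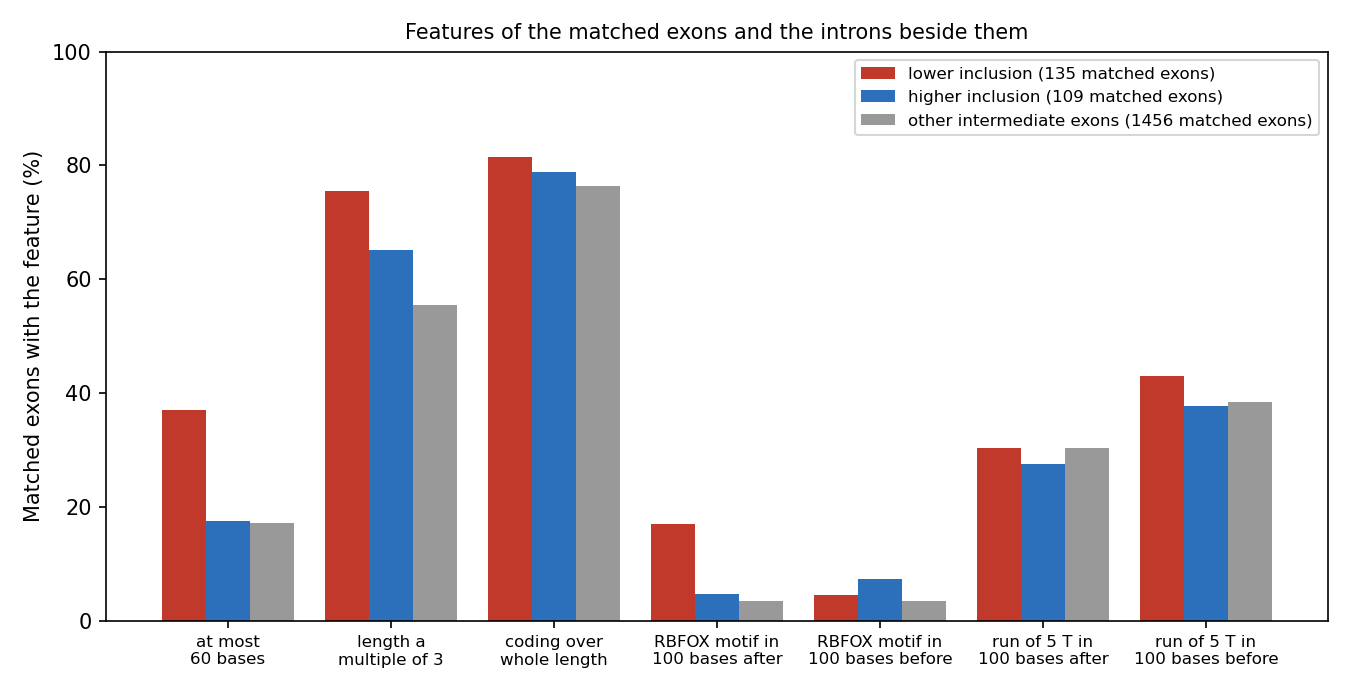
Share of matched exons (y axis, percent) with each feature in the 135 members (red), 109 events with higher inclusion (blue) and 1456 other intermediate events (grey). The RBFOX motif is found after 17.0% of member exons, against 4.59% and 3.37%, and exons of at most 60 bases make up 37.0%, 17.4% and 17.2%.

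Most other events of the member genes had little difference. With at least 30 reads in each group, 240 of the member genes had 1124 further events, with a median pooled difference of 0. Within 0.05 of no difference were 850 of them (75.6%), against 86.0% of the events of all other genes. Among the further events 32 had higher inclusion by the mirrored rule, and 22 genes held both a member and an event with higher inclusion. The scaled log2 ratio of an event's weighted reads, formed as for RBFOX2 above, was under -1 in 22 members (6.34%), beside 7.17% of the other intermediate events.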

How the data were processed

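Inclusion was read from 1 deposited table of cassette exon events. The authors mapped paired-end reads of polyA-selected RNA to exon junctions (TopHat is named in the submitters' processing notes) and deposited an inclusion rate for each sample as a fraction, the average fraction of each group, and read counts of the including and skipping isoforms summed over the 3 samples of a group. Columns with the authors' own comparisons (3: a difference, an odds ratio and a p-value) were not used. The build of the coordinates is not given in the sources used here. The 77 exact repeat rows were dropped.

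Pooled rates and Fisher's exact test (two-sided, scipy 1.17.1) used the deposited counts. Sample rates entered where they gave both printed averages within 3e-09. The other 1392 rows took rates from the row that gave both averages (1122) or the RBM47 average (253), and 17 had none. Counts per sample were not analysed, so limma 3.58.1 (R 4.3.3) was fitted to arcsine-transformed square roots of the rates, with prior variance trended on log2 reads, over 5989 events with a mean rate of 0.1 to 0.9, with Benjamini-Hochberg adjustment over all of them (statsmodels 0.14.6 for Fisher's test). The limma script was tested on simulated data. Exons were matched to GENCODE release 44 lifted to GRCh37, by gene, chromosome and exact outer span: 8.77% of events lay inside the GRCh37 gene of the same name by the table's own coordinates, and 9064 of 24648 events fitted 1 exon. Motifs were searched in the 100 intron bases on either side. Gene symbols are the table's.

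Members, lists and tests were chosen with earlier results of these data known. Prefix matches that took in genes of other functions were removed from the lists after their hits were seen. Named members were the 12 with the largest pooled difference, the 10 with the smallest limma p, the 2 deepest of each list, 3 on each side of the limit, members in genes the study named, and members sharing a gene. Some of these are not reported here. Same-numbered samples did not deviate together (r -0.02, -0.00344 and 0.01 over 5989 events). Alternatives covered the reads, limits and rate behind membership, the limma scale and filter, row matching, leaving out each sample and exon matching. Intervals cover counting error only.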

Additional observations from a re-analysis of the deposited data

How the results depend on the processing

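Membership moved most with its own limits. The rule gave 222 events at 100 reads, 595 at a fall of at least 0.05, 108 at 0.20 and 206 with an adjusted Fisher p, and 298 to 383 under the other alternatives, beside 347. Beside the 41 limma calls among members there were 60 on untransformed rates (40 of them shared with the 41), 38 on log2 odds (37 shared), 22 without the variance trend (19 shared), 22 with events of all mean rates (19 shared), 27 with the replicate number as a block (25 shared) and 2 when only rows aligned as deposited were fitted (2 shared), where fewer members could be tested. Leaving out 1 sample gave 17 (without control replicate 3) to 27 calls, and all such fits had fewer than 41. Without the members matched by the RBM47 average alone, 11 of the 41 calls are left. Members without overlap of samples were 139 with the rates in the row as deposited, 89 over rows aligned as deposited, and 221 to 238 without 1 sample. The median difference of mean rates was -0.0947 with the rates as deposited, -0.132 over aligned rows, -0.158 for pooled rates, -0.173 as a mean, and -0.156 to -0.142 without 1 sample. The share of member exons that were a multiple of 3 was 79.5% among exons coding in whole or in part. It was 69.4% with each exon that fits several rows counted once. The motif share was 18.1% when counted that way. The motif share itself was not a planned result. This way of counting, the 200-base window and the limit of 100 bases were chosen after seeing the data. No difference of mean rates of the 43 named members changed sign when 1 sample was left out. Their pooled differences were negative by the rule, and the other alternatives run for them bore on the limma p alone. Rates in the row as deposited were not run for single members. Of the 23 named members called by limma, 6 were not called with the replicate block. Replicate numbers were assigned by the labels, and whether they mark paired cultures is not stated. Depth per sample is unknown, and low totals limit members such as NF2, MDM4 and CADPS2.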
